A study of Mus musculus with 10 samples.

Results

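Transcripts of 10 chemokine genes were measured in RNA pulled down with tagged ribosomes from mouse primary somatosensory cortex: Cxcl9, Cxcl10, Cxcl12, Cxcl14, Cxcl16, Cx3cl1, Ccl2, Ccl3, Ccl4 and Ccl5. They were chosen by name, as the rows of the count table whose Ensembl identifier maps to these symbols, and they are 10 of the 55536 genes in that table. The study profiled ribosome-bound RNA by translating ribosome affinity purification (TRAP), in which a Cre driver switches on a GFP-tagged ribosomal protein, EGFP-L10a, and antibodies against GFP pull down the ribosomes of the cells that carry it. The 3 groups were Il-17ra-Cre mice (3 libraries), Il-17rb-Cre mice (3 libraries) and Il-17rc-Cre mice (4 libraries), in which Cre is driven by the genes of the interleukin-17 receptor subunits A, B and C. Mice of every group had the virus AAV5-EF1α-Flex-EGFPL10a injected into this cortical area, 400 nl per side at 0.1 µl per minute, with 4 weeks between surgery and purification. All groups therefore shared the virus, the injection and the tagged protein, and libraries without Cre, without virus or of whole tissue are not analysed here. The share of RNA from cells without the tag was therefore not measured. The labels give neither age nor sex. Nothing in them states that replicates came from different animals, and each p-value then speaks of the variation among these libraries, which may be technical.

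Chemokines are small secreted or membrane-tethered proteins that steer the movement of cells through G protein-coupled receptors. Most are produced when interferon, tumour necrosis factor or interleukin-1 signalling reaches a cell, and a smaller group is made at a steady level in healthy tissue. In the brain, Cx3cl1 is a neuronal product read by Cx3cr1 on microglia, Cxcl12 guides migrating neurons and lines vessels and meninges, and Cxcl10, Ccl2 and Ccl5 are known for recruiting leukocytes during infection and inflammation.

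Library totals ran from 39692925 to 165844244 counts, and each library had counts in 21205 to 24790 genes. Of the 55536 genes, 20301 passed the filter on low counts, and all 10 chemokines were among them. The driver transcripts did not follow the labels in every case. Il17ra had a mean of 18.5 CPM (counts per 1000000, after scaling for library size and composition) in Il-17ra-Cre, 26.5 CPM in Il-17rb-Cre and 18.8 CPM in Il-17rc-Cre. Il17rb was low throughout, with means of 2.26, 0.714 and 1.27 CPM in the same order, and Il17rc had means of 29.4, 1.89 and 28.3 CPM. The groups below are therefore named as the labels name them. Rpl10a, the gene whose coding sequence the tag carries, ran from 602 to 670 CPM in Il-17rb-Cre and from 191 to 267 CPM in Il-17rc-Cre, and in Il-17ra-Cre it was 58.7 and 70.9 CPM in replicates 1 and 2 against 679 CPM in replicate 3. Over all genes, replicate 3 of Il-17ra-Cre also stood apart, with a chi-square per gene of 1060 and 817 against replicates 1 and 2, which differed from each other by 87.5. In Il-17rc-Cre, replicates 1 and 3 were close (43.3) and the other pairs differed by 134 to 336. The chi-square was computed on raw counts and grows with depth, so its size is not comparable between pairs of unequal depth. Il-17ra-Cre replicate 3 had 165844244 counts, against 42642810 and 39692925 in replicates 1 and 2.

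The chemokines fell into 3 patterns. Cxcl9, Cxcl10, Cxcl14, Cxcl16, Ccl2, Ccl3, Ccl4 and Ccl5 were lower in Il-17rb-Cre than in either other group, by 7.01-fold to 290-fold. Cx3cl1 was higher in Il-17rb-Cre, by 3.11-fold against Il-17ra-Cre and 2.84-fold against Il-17rc-Cre. Cxcl12 was at a similar level in all 3 groups. Between Il-17ra-Cre and Il-17rc-Cre none of the 10 passed the threshold, an adjusted p of 0.05 in edgeR's quasi-likelihood test. Both comparisons with Il-17rb-Cre use the same 3 Il-17rb-Cre libraries, so they are not independent of each other.

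**Figure D1:**
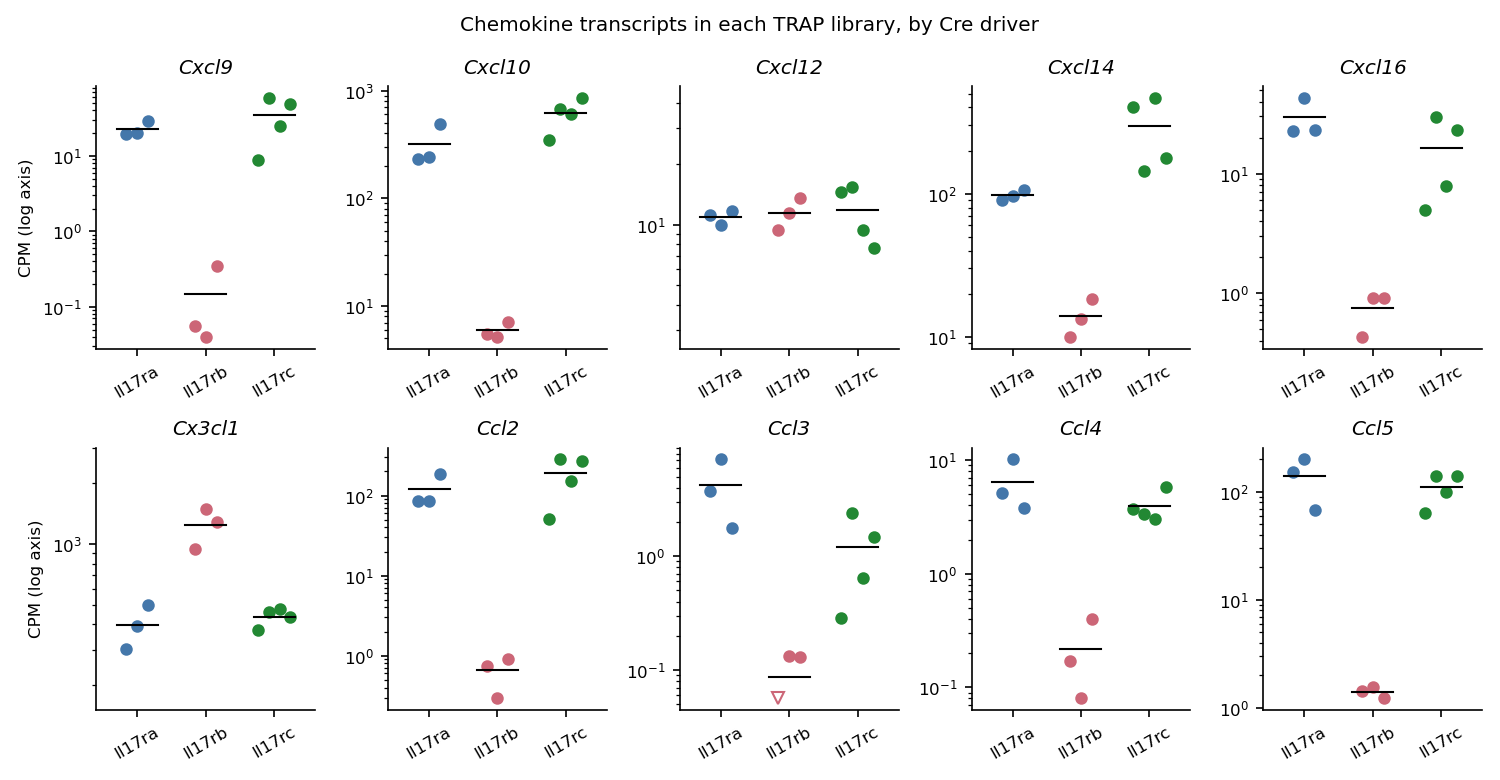
Level of each chemokine transcript in each library, in CPM on a log axis, with 1 panel per gene. Points are libraries in replicate order from left to right, black lines are group means, and the open triangle marks a count of 0 drawn at the level of 3 counts. In 8 panels the 3 Il-17rb-Cre libraries lie below every other library, in the Cx3cl1 panel they lie above, and in the Cxcl12 panel the groups overlap.

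Cxcl9 and Cxcl10 are interferon-induced ligands of Cxcr3, the receptor of activated T cells, and they lie near each other on chromosome 5. Cxcl10 (ENSMUSG00000034855, chromosome 5, 92346638 to 92348889, minus strand, GRCm38, protein coding) was at 230.4, 244 and 485 CPM in the Il-17ra-Cre libraries. It was at 5.54, 5.18 and 7.18 CPM in the Il-17rb-Cre libraries and at 345, 678, 607 and 855 CPM in the Il-17rc-Cre libraries. Every Il-17rb-Cre library was thus far below every other one, and these levels rest on 295, 388 and 502 counts. The log2 fold change was -5.74 ± 0.44 (SE) against Il-17ra-Cre (53.6-fold lower, adjusted p = 1.43e-05, edgeR) and -6.70 ± 0.45 against Il-17rc-Cre (104-fold lower, adjusted p = 5.18e-06, edgeR). Of the exonic bases of Cxcl10, 5.91% overlap exons of Art3, a gene that was itself lower in Il-17rb-Cre, with means of 10.6, 0.335 and 28.7 CPM in Il-17ra-Cre, Il-17rb-Cre and Il-17rc-Cre. The library kit does not mark strand, so reads in the shared bases cannot be assigned to either gene.

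Cxcl9 (ENSMUSG00000029417, chromosome 5, 92321347 to 92328079, minus strand) was at 19.7, 20.4 and 29.2 CPM in Il-17ra-Cre. It was at 0.0563, 0.0400 and 0.343 CPM in Il-17rb-Cre and at 8.87, 58.6, 24.8 and 49.1 CPM in Il-17rc-Cre. The groups did not overlap, but the Il-17rb-Cre values stand for only 3, 3 and 24 counts, so their size is known poorly. In the fit its log2 fold change was -7.25 ± 0.93 against Il-17ra-Cre (adjusted p = 0.000253, edgeR) and -7.87 ± 0.94 against Il-17rc-Cre (adjusted p = 0.000145, edgeR).

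RefSeq promoter sequences on GRCm38.p6 were available for 6 of the 10 genes, and 4 are shown here because they belong to genes of contrasting pattern: Cxcl10, Cxcl9 and Cxcl14, which were lower in Il-17rb-Cre, and Cxcl12, which was not. Each run is the 250 bases before the start site, in the direction of the gene. Capitals mark matches on either strand to 5 motifs. These were the ISRE core of interferon factors (GAAA, any 2 bases, GAAA), the GAS element of STAT factors (TTC, any 3 bases, GAA), a core of NF-kappaB sites (GGGA, any 4 bases, CC), the AP-1 element (TGANTCA) and the box TATAAA.
Cxcl10, chr5:92348890-92349139, minus strand: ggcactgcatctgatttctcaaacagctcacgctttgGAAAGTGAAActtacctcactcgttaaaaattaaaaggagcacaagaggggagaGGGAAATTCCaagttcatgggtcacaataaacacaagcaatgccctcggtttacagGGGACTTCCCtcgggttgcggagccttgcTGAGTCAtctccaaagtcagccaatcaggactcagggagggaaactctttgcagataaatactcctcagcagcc
Cxcl9, chr5:92328080-92328329, minus strand: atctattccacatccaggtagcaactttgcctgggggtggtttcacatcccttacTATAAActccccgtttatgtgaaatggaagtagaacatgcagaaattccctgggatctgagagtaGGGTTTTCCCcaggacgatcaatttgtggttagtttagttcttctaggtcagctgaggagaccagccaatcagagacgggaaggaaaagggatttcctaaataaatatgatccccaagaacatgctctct
Cxcl14, chr13:56296552-56296801, minus strand: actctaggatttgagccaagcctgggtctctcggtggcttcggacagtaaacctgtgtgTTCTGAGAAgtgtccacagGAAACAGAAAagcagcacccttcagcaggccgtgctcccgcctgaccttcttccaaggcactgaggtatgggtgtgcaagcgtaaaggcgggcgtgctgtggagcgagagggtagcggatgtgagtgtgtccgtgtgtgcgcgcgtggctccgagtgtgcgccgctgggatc
Cxcl12, chr6:117168285-117168534, plus strand: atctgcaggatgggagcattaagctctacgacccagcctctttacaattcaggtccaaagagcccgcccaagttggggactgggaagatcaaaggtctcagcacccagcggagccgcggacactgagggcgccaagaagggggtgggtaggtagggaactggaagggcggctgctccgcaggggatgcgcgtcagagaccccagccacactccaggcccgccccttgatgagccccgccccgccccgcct
The Cxcl10 window held an ISRE core from -213 to -204, NF-kappaB cores from -159 to -150 and from -103 to -94, and an AP-1 element from -74 to -68, counted from the start site. The Cxcl9 window held an NF-kappaB core on the other strand from -130 to -121 and the box TATAAA from -195 to -190. The Cxcl14 window held a GAS element from -191 to -183 and an ISRE core from -172 to -163. The windows of Cxcl12 and Ccl3, and the 79 bases of the Cx3cl1 window that lie outside its annotated exons, held none of these letters. Ccl3 was itself lower in Il-17rb-Cre, so the lower genes with a window did not all hold a match. Over all 32851 promoters in the table, matches were found in 2.98% for the ISRE core, 7.02% for the GAS element, 17.6% for the NF-kappaB core, 6.75% for the AP-1 element and 12.4% for the box TATAAA, so that several of these matches are common. A match is a description of the letters and not a measured binding site.

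Ccl2, Ccl3, Ccl4 and Ccl5 are CC chemokines encoded on chromosome 11. Ccl2 (ENSMUSG00000035385, chromosome 11, 82035571 to 82037453, plus strand), the monocyte attractant that acts through Ccr2, was at 85.1, 85.7 and 187 CPM in Il-17ra-Cre. It was at 0.751, 0.294 and 0.915 CPM in Il-17rb-Cre and at 51.0, 283, 152 and 270 CPM in Il-17rc-Cre. No Il-17rb-Cre library came near another group, although the Il-17rb-Cre values rest on only 40, 22 and 64 counts. The log2 fold change of Ccl2 had the most negative estimate of the 10 genes, at -7.52 ± 0.80 against Il-17ra-Cre (183-fold lower, adjusted p = 8.98e-05, edgeR) and -8.18 ± 0.81 against Il-17rc-Cre (290-fold lower, adjusted p = 4.79e-05, edgeR). The estimates of Cxcl9, -7.25 ± 0.93 and -7.87 ± 0.94, lay within these errors, so the order of Ccl2 and Cxcl9 is not settled.

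Ccl5 (ENSMUSG00000035042, chromosome 11, 83525778 to 83530518, minus strand) attracts T cells and monocytes. It was at 153, 199.7 and 68.3 CPM in Il-17ra-Cre, at 1.45, 1.55 and 1.23 CPM in Il-17rb-Cre and at 64.0, 142, 99.9 and 141 CPM in Il-17rc-Cre. The Il-17rb-Cre libraries were low and close to each other, with a mean of 1.41 ± 0.163 CPM (SD, n = 3). For Ccl5 the log2 fold change was -6.64 ± 0.50 against Il-17ra-Cre (adjusted p = 1.34e-05, edgeR) and -6.31 ± 0.48 against Il-17rc-Cre (adjusted p = 9.88e-06, edgeR).

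Ccl3 and Ccl4 are closely related chemokines that microglia and macrophages release on activation, and both were scarce. Ccl3 (ENSMUSG00000000982, chromosome 11, 83647844 to 83649355, minus strand) was at 3.75, 7.11 and 1.76 CPM in Il-17ra-Cre, at 0, 0.134 and 0.129 CPM in Il-17rb-Cre and at 0.288, 2.41, 0.641 and 1.47 CPM in Il-17rc-Cre. The 0 stands for no count in 1 library, where 3 counts would be 0.0563 CPM, and the lowest Il-17rc-Cre library held 14 counts. The log2 fold change was -5.51 ± 1.15 against Il-17ra-Cre (adjusted p = 0.00385, edgeR) and -3.72 ± 1.05 against Il-17rc-Cre (adjusted p = 0.0180, edgeR). With only Il-17ra-Cre replicate 3 left in its group, the first of these was -4.25 and no longer passed (adjusted p = 0.0577, edgeR). Ccl4 (ENSMUSG00000018930, chromosome 11, 83662584 to 83664683, plus strand) was at 5.18, 10.1 and 3.77 CPM in Il-17ra-Cre, at 0.169, 0.0801 and 0.400 CPM in Il-17rb-Cre and at 3.70, 3.39, 3.02 and 5.79 CPM in Il-17rc-Cre. Its Il-17rc-Cre libraries differed less among themselves than those of Ccl3. The log2 fold change of Ccl4 was -4.86 ± 0.66 against Il-17ra-Cre (adjusted p = 0.000359, edgeR) and -4.19 ± 0.63 against Il-17rc-Cre (adjusted p = 0.000581, edgeR).

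Cxcl16 and Cx3cl1 are the members of the family made as membrane proteins, with the chemokine domain on a mucin stalk that proteases can cut. Cx3cl1 (ENSMUSG00000031778, chromosome 8, 94772009 to 94782427, plus strand), or fractalkine, was at 303, 391 and 502 CPM in Il-17ra-Cre. It was at 944, 1490 and 1291 CPM in Il-17rb-Cre and at 374, 459.7, 479 and 435 CPM in Il-17rc-Cre. All 3 Il-17rb-Cre libraries were above all 7 others, and the Il-17rc-Cre libraries lay within the range of the Il-17ra-Cre libraries. Cx3cl1 had a log2 fold change of 1.64 ± 0.23 against Il-17ra-Cre (adjusted p = 0.000413, edgeR) and 1.51 ± 0.21 against Il-17rc-Cre (adjusted p = 0.000353, edgeR). The 6 markers of excitatory neurons moved the same way, all higher in Il-17rb-Cre in both comparisons, where 16.4% and 17.7% of all genes were called higher. The summed level of these markers was 17500 to 20570 CPM in Il-17rb-Cre against 1540 to 6575 CPM in the other libraries. In bulk material of this kind more cells of a type and more RNA per cell cannot be told apart, and the part of neuron content in the Cx3cl1 difference was not tested.

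Cxcl16 (ENSMUSG00000018920, chromosome 11, 70453983 to 70459984, minus strand), the ligand of Cxcr6, went the other way. It was at 22.6, 42.9 and 23.3 CPM in Il-17ra-Cre, at 0.432, 0.908 and 0.915 CPM in Il-17rb-Cre and at 4.96, 29.8, 7.86 and 23.1 CPM in Il-17rc-Cre. Cxcl16 had a log2 fold change of -5.28 ± 0.74 against Il-17ra-Cre (adjusted p = 0.000424, edgeR) and -4.44 ± 0.70 against Il-17rc-Cre (adjusted p = 0.000778, edgeR). Exons of Zmynd15 cover 18.27% of the exonic bases of Cxcl16, and Zmynd15 had means of 5.03, 0.138 and 2.03 CPM in Il-17ra-Cre, Il-17rb-Cre and Il-17rc-Cre, so part of the Cxcl16 reads cannot be assigned with certainty.

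Cxcl12 and Cxcl14 are usually described as homeostatic chemokines, made without inflammation. Cxcl12 (ENSMUSG00000061353, chromosome 6, 117168535 to 117181367, plus strand) was at 11.1, 9.95 and 11.7 CPM in Il-17ra-Cre, at 9.40, 11.4 and 13.5 CPM in Il-17rb-Cre and at 14.5, 15.4, 9.46 and 7.69 CPM in Il-17rc-Cre. The groups overlapped, and the 2 extremes both came from Il-17rc-Cre. The log2 fold change was 0.07 ± 0.28 in Il-17rb-Cre against Il-17ra-Cre (95% interval -0.56 to 0.70, adjusted p = 0.867, edgeR) and -0.04 ± 0.27 against Il-17rc-Cre (95% interval -0.63 to 0.55, adjusted p = 0.925, edgeR). A log2 difference of 1 in either direction thus lies outside both intervals.

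Cxcl14 (ENSMUSG00000021508, chromosome 13, 56288643 to 56296551, minus strand), a conserved chemokine also known from some cortical interneurons, was at 90.7, 96.2 and 106 CPM in Il-17ra-Cre. It was at 10.0, 13.4 and 18.4 CPM in Il-17rb-Cre and at 403, 144, 466 and 177 CPM in Il-17rc-Cre. The 3 groups did not overlap with each other, and Il-17rc-Cre split into a pair of high and a pair of lower libraries. Cxcl14 had a log2 fold change of -2.81 ± 0.45 against Il-17ra-Cre (7.01-fold lower, adjusted p = 0.000890, edgeR) and -4.42 ± 0.47 against Il-17rc-Cre (21.4-fold lower, adjusted p = 7.63e-05, edgeR). Cxcl14 therefore went with the inflammatory genes and not with Cxcl12 in these comparisons. Of 7 markers of inhibitory neurons, 4 were higher and none lower in Il-17rb-Cre against Il-17ra-Cre, and 2 were higher and 1, Gad2, was lower against Il-17rc-Cre. Over all genes 16.4% were called higher and 24.4% lower in the first comparison, and 17.7% and 21.9% in the second. The summed level of these markers was 248 to 414 CPM in Il-17ra-Cre, 1436 to 1486 CPM in Il-17rb-Cre and 532 to 654 CPM in Il-17rc-Cre, and its part in the Cxcl14 difference was not tested.

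In Il-17rb-Cre against Il-17ra-Cre, 8 of the 10 chemokines were lower, 1 was higher and 1 did not pass. Over all 20301 genes tested, 24.4% were called lower, 16.4% higher and 40.7% in either direction. The median log2 fold change was -5.40 over the 10 chemokines and -0.09 over all genes. Against Il-17rc-Cre the counts were again 8 lower, 1 higher and 1 not past the threshold, where 21.9% of all genes were called lower, 17.7% higher and 39.7% in either direction, and the medians were -4.43 and 0.02. The Il-17rb-Cre libraries lay wholly below the other group for 8 chemokines in each comparison, as for 29.2% of all genes against Il-17ra-Cre and 25.5% against Il-17rc-Cre. They lay wholly above it for Cx3cl1, as for 24.6% and 27.5% of all genes, which makes 53.8% and 53.0% of all genes without overlap in either direction.

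**Figure D2:**
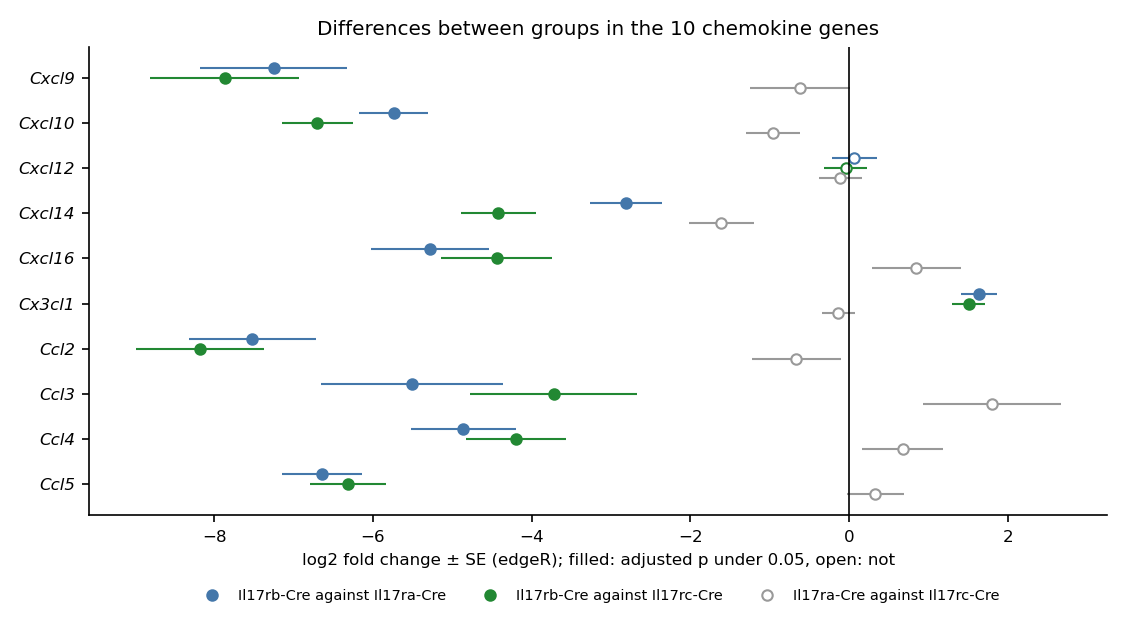
Log2 fold change of each chemokine in the 3 comparisons, with SE as horizontal bars, from edgeR. Filled points passed an adjusted p of 0.05 and open points did not; 8 genes lie left of 0 in both comparisons of Il-17rb-Cre, Cx3cl1 lies right of 0, and every grey point, for Il-17ra-Cre against Il-17rc-Cre, is open.

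Astrocyte, microglial and mural markers moved with the lower chemokines, and excitatory neuron markers moved with Cx3cl1. The part of these markers in the differences was not tested. Over all genes tested, 24.4% were called lower and 16.4% higher in Il-17rb-Cre against Il-17ra-Cre, and 21.9% and 17.7% against Il-17rc-Cre. Of 9 astrocyte markers, 9 were lower in Il-17rb-Cre in each comparison, and their summed level was 632 to 652 CPM there, 6897 to 13580 CPM in Il-17ra-Cre and 11200 to 17410 CPM in Il-17rc-Cre. Gfap, the intermediate filament of astrocytes, had means of 6790 ± 1710 (SD, n = 3), 161 ± 20.1 (n = 3) and 6599 ± 833 CPM (n = 4) in Il-17ra-Cre, Il-17rb-Cre and Il-17rc-Cre. Astrocyte markers were thus high in both groups in which the inflammatory chemokines were high. This was not particular to astrocytes. The microglial, mural and endothelial sums given next were also higher in every library of both groups than in Il-17rb-Cre. Of 14 markers of microglia and macrophages, 14 were lower in Il-17rb-Cre against Il-17ra-Cre and 10 against Il-17rc-Cre, and the sums were 730 to 1300 CPM in Il-17ra-Cre, 26.0 to 30.9 CPM in Il-17rb-Cre and 44.2 to 221 CPM in Il-17rc-Cre. Itgam, Ptprc and Mrc1, which define myeloid cells, leukocytes and perivascular macrophages, were at 0 in all 3 Il-17rb-Cre libraries. They passed the filter through the other groups alone, so they could not be higher in Il-17rb-Cre. These genes were low elsewhere too, with means of 2.55, 7.54 and 0.275 CPM in Il-17ra-Cre and 0.566, 1.46 and 0.468 CPM in Il-17rc-Cre. Other markers of the list had counts in Il-17rb-Cre, and Trem2 had a mean of 4.17 CPM there against 2.41 CPM in Il-17rc-Cre, a difference that did not pass. Of 9 mural markers, 8 and 9 were lower in Il-17rb-Cre against Il-17ra-Cre and Il-17rc-Cre, with sums of 120 to 201 CPM in Il-17ra-Cre, 4.32 to 8.78 CPM in Il-17rb-Cre and 489 to 1054 CPM in Il-17rc-Cre. Anpep, in the mural list, had no count in Il-17rb-Cre and likewise could not be higher there. Of 9 endothelial markers, 3 and 6 were lower, with sums of 46.0 to 395, 2.03 to 7.55 and 59.1 to 208 CPM in the order of the groups. All 6 oligodendrocyte markers were lower against Il-17ra-Cre and 1 of 6 against Il-17rc-Cre, with sums of 5083 to 42950, 988 to 1115 and 1015 to 3816 CPM. The counts of 3 endothelial markers against Il-17ra-Cre and 1 oligodendrocyte marker against Il-17rc-Cre are near the shares of all genes called lower. T cell markers, for cells that also make Ccl3, Ccl4 and Ccl5, summed to 16.3 to 57.3, 73.3 to 122 and 19.4 to 47.9 CPM in the same order. That sum is mostly Trbc2 in Il-17rb-Cre, with a mean of 98.2 CPM there. Of the 7 markers, 5 were lower and 1 higher in Il-17rb-Cre against Il-17ra-Cre and 4 lower and 1 higher against Il-17rc-Cre, Trbc2 being the higher one, and Cd3e, Cd8a and Cd2 were at 0 in every Il-17rb-Cre library. Cd3e, Cd8a and Cd2 also passed the filter through the other groups alone and could not be higher in Il-17rb-Cre.

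Levels of different chemokines were compared per kilobase of exon (RPKM). In Il-17ra-Cre the order of means was Ccl5 (146 RPKM), Cxcl10 (142), Ccl2 (105), Cx3cl1 (101), Cxcl14 (53.5), Cxcl16 (9.79), Ccl4 (9.64), Cxcl9 (7.65), Ccl3 (5.49) and Cxcl12 (1.33). The first 4 overlapped as neighbours across libraries, although Cxcl10 was above Ccl2 in 3 of 3, and gaps without overlap lay between Cx3cl1 and Cxcl14, between Cxcl14 and Cxcl16, and between Ccl3 and Cxcl12. In Il-17rc-Cre the order was Cxcl10 (276 RPKM), Ccl2 (166), Cxcl14 (163), Ccl5 (116), Cx3cl1 (111), Cxcl9 (11.7), Ccl4 (6.02), Cxcl16 (5.43), Ccl3 (1.57) and Cxcl12 (1.44). There the only neighbours that did not overlap were Cx3cl1 and Cxcl9, while within libraries Cxcl10 was above Ccl2 and Cxcl16 above Ccl3 in 4 of 4. In Il-17rb-Cre Cx3cl1 stood first at 316 RPKM, followed by Cxcl14 (7.62), Cxcl10 (2.65), Ccl5 (1.47), Cxcl12 (1.40), Ccl2 (0.574), Ccl4 (0.328), Cxcl16 (0.249), Ccl3 (0.114) and Cxcl9 (0.0486). The first 4 of that order did not overlap with each other, Cxcl12 lay above Ccl2 in every library, and Ccl5 and Cxcl12 overlapped, as did the neighbours among the last 5 genes. Within libraries, Ccl2 was above Ccl4 and Cxcl16 above Ccl3 in 3 of 3. Cxcl12 was last in RPKM in both groups rich in the other chemokines and the fifth in Il-17rb-Cre, at nearly the same level. That place depends on length, taken over all annotated exons: 8176 bases for Cxcl12, 660 for Ccl4 and 766 for Ccl3. In CPM, the means of Cxcl12 in Il-17ra-Cre and Il-17rc-Cre (10.9 and 11.8) were above those of Ccl4 (6.36 and 3.98) and Ccl3 (4.2 and 1.20).

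Cx3cl1 made up 95.6% ± 0.915 (SD, n = 3) of the summed RPKM of the 10 genes in Il-17rb-Cre, 17.3% ± 1.81 (n = 3) in Il-17ra-Cre and 13.3% ± 2.12 (n = 4) in Il-17rc-Cre. Cxcl10 made up 23.9%, 0.827% and 31.4% in Il-17ra-Cre, Il-17rb-Cre and Il-17rc-Cre, and Ccl5 made up 26.1%, 0.459% and 13.3%. The share of Ccl2 was 17.6%, 0.187% and 18.1%, and that of Cxcl14 was 9.26%, 2.31% and 20.9%. Among these 10 genes, the summed RPKM of Il-17rb-Cre was thus nearly 1 gene, while 5 genes shared most of it elsewhere. Other ligands are outside this sum, among them Ccl27a, with a mean of 308 CPM in Il-17rb-Cre. Ccl7, with a mean of 112 CPM in Il-17rc-Cre, is outside it too. The summed level of all 10 genes was 972 to 1523 CPM in Il-17rb-Cre, which overlapped with 925 to 1417 CPM in Il-17ra-Cre and 1270 to 1965 CPM in Il-17rc-Cre. Without Cx3cl1 and Cxcl12 the sum was 18.4 to 29.5 CPM in Il-17rb-Cre, 610.5 to 904 CPM in Il-17ra-Cre and 881 to 1522 CPM in Il-17rc-Cre.

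**Figure D3:**
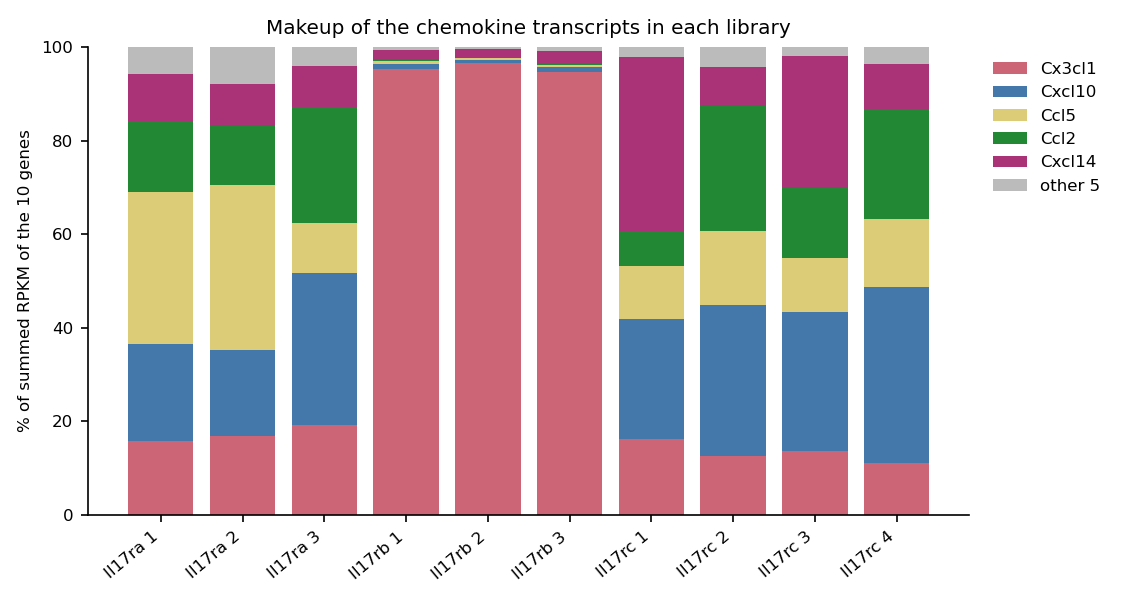
Share of each chemokine in the summed RPKM of the 10 genes, in percent, with 1 stacked bar per library and Cxcl9, Cxcl12, Cxcl16, Ccl3 and Ccl4 added together. Cx3cl1 fills 94.8% to 96.6% of the 3 Il-17rb-Cre bars, while Cxcl10, Ccl5, Ccl2 and Cxcl14 fill most of the others; Cxcl14 is widest in Il-17rc-Cre replicates 1 and 3.

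In Il-17ra-Cre against Il-17rc-Cre, 0 of the 10 chemokines passed in edgeR, where 2.18% of all genes were called, 1.38% higher and 0.798% lower in Il-17ra-Cre. At an unadjusted p under 0.05 there were 2, Cxcl10 and Cxcl14, which DESeq2 called after adjustment. With limma voom 6 were called, these 2 lower and Cxcl16, Ccl3, Ccl4 and Ccl5 higher in Il-17ra-Cre. Cxcl14 had a log2 fold change of -1.61 ± 0.41 (95% interval -2.52 to -0.69, adjusted p = 0.0710, edgeR) and was the single chemokine whose libraries did not overlap between these groups, as for 14.6% of all genes in either direction, 6.65% lower and 7.92% higher in Il-17ra-Cre. Without Il-17rc-Cre replicate 2 it passed, at -1.84 (adjusted p = 0.0350, edgeR), and without Il-17rc-Cre replicates 1 and 3 together it was -0.76 (adjusted p = 0.360, edgeR). Its size thus rests on the high pair of Il-17rc-Cre libraries. Cxcl10 was at -0.96 ± 0.34 (adjusted p = 0.167, edgeR), and without Il-17ra-Cre replicate 3 it passed at -1.39 (adjusted p = 0.0240, edgeR). The remaining values had wide intervals: Ccl3 1.80 (-0.14 to 3.74), Cxcl16 0.85 (-0.41 to 2.10), Ccl4 0.68 (-0.46 to 1.81), Ccl5 0.33 (-0.46 to 1.12), Cxcl9 -0.61 (-2.02 to 0.79) and Ccl2 -0.66 (-1.91 to 0.58). The intervals of Cx3cl1 (-0.60 to 0.33) and Cxcl12 (-0.70 to 0.49) were the narrowest.

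Replicates of a group differed in which chemokines they held. In Il-17ra-Cre, replicate 3 had the highest Cxcl9, Cxcl10, Ccl2 and Cx3cl1 and, by a small margin, Cxcl12 and Cxcl14, and the lowest Ccl3, Ccl4 and Ccl5 of its group. In the same library the summed markers of oligodendrocytes were 5083 CPM against 29470 and 42950 CPM in replicates 2 and 1, those of astrocytes 6897 against 12890 and 13580 CPM, and those of excitatory neurons 6575 against 1763 and 1540 CPM. In Il-17rc-Cre, replicates 1 and 3 had the higher Cxcl14 and the lower Cxcl9, Cxcl10, Cxcl16, Ccl2, Ccl3 and Ccl5. Their microglial and macrophage markers summed to 44.2 and 51.5 CPM against 221 and 116 CPM in replicates 2 and 4, and their astrocyte markers to 16740 and 17410 CPM against 11200 and 13350 CPM. Cxcl14 was thus high where the astrocyte sum was high within Il-17rc-Cre, but the markers in that sum differed. Aldoc, at 6745, 1487, 6342 and 1861 CPM in replicate order, gave much of its spread. Aqp4, Slc1a2, Slc1a3, Gja1 and S100b were also higher in replicates 1 and 3, while Gfap, Aldh1l1 and Sox9 were highest in replicate 4. In Il-17ra-Cre the library with the highest Cxcl14, replicate 3, had the lowest astrocyte sum. The part of cell makeup in this spread was not tested. The coefficient of variation of a chemokine within a group had a median of 41.9% in Il-17ra-Cre, 33.6% in Il-17rb-Cre and 44.1% in Il-17rc-Cre.

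**Figure D4:**
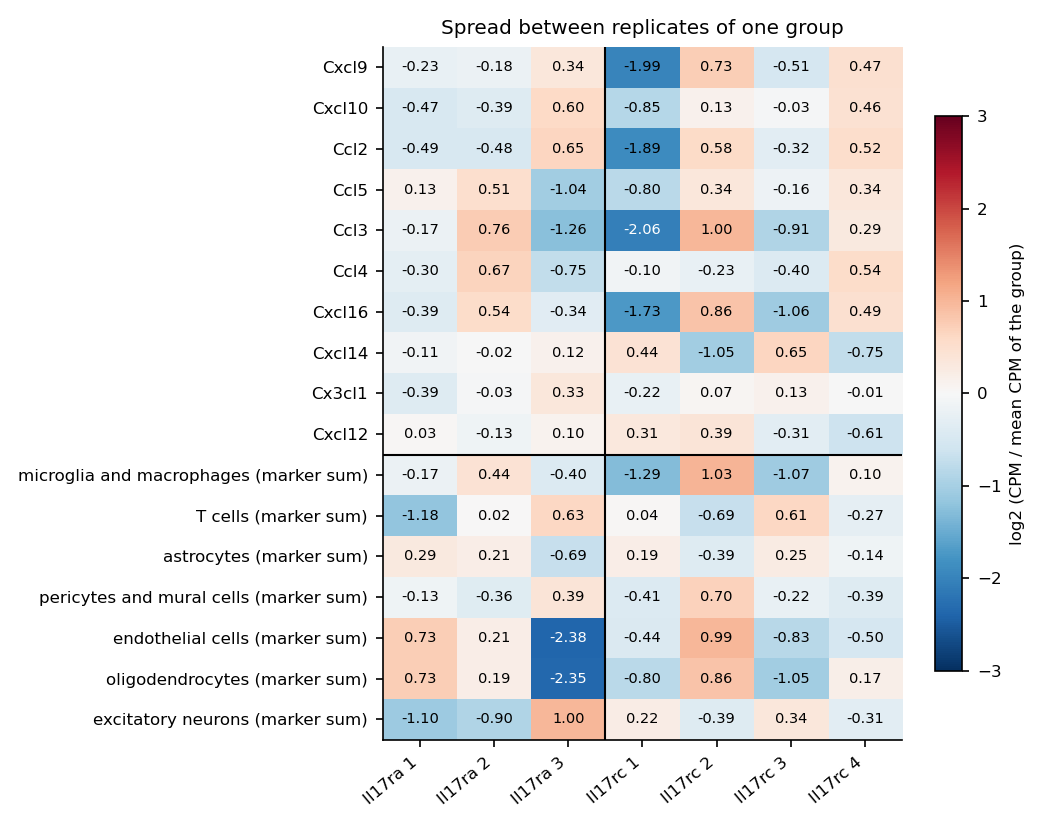
Each library's level of each chemokine (upper rows) and of the summed cell type markers (lower rows), as the log2 ratio to the mean CPM of its own group, for Il-17ra-Cre and Il-17rc-Cre. Blue is below and red above the group mean; Il-17rc-Cre replicates 1 and 3 are below it for Cxcl9, Ccl2, Ccl3 and Cxcl16 and above it for Cxcl14, and Il-17ra-Cre replicate 3 is lowest for oligodendrocyte and endothelial markers.

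Genes with the most similar profile to each chemokine were found by the root mean square difference between log2 CPM profiles over the 10 libraries, each centred on its own mean, among 9596 genes. The closest to Cx3cl1 were Nptxr (0.146), St8sia5 (0.147) and Snap91 (0.155), genes of synapses and neuronal glycolipids, and Nptxr had means of 70.4, 260.4 and 79.0 CPM in Il-17ra-Cre, Il-17rb-Cre and Il-17rc-Cre. The closest to Cxcl10 were Fas (0.261), a death receptor, Sdc4 (0.320), a heparan sulphate proteoglycan, and Axl (0.350), a receptor tyrosine kinase. The closest to Cxcl14 were Luzp2 (0.307), Pygm (0.316), the glycogen phosphorylase named for muscle, and Prr5 (0.325). Cxcl9 and Ccl2 had the same closest genes, Ccl7 (0.436 and 0.406), Glipr2 (0.578 and 0.457) and Nupr1 (0.590 and 0.488), and of all pairs among the 10 chemokines they were the most similar to each other (0.460). The closest to Ccl5 were Tagln2 (0.378), Gbp5 (0.383), an interferon-induced GTPase, and Tnfaip2 (0.384), and those to Ccl4 were Trim34a (0.413), Parp9 (0.434) and Parp3 (0.457). Cxcl16 was closest to Arpc1b (0.419), Tap1 (0.495), the peptide transporter of antigen presentation, and Socs3 (0.498). Ccl3 had the loosest match, with Nlrc5 (0.598), Cd274 (0.712) and Erap1 (0.716), and Cxcl12 was closest to the nearly level genes Sec22c (0.172), Thap12 (0.184) and Pdik1l (0.191). Ccl3 had a mean of 1.77 CPM over all libraries, so genes at its own level were not searched. These distances describe 10 libraries of 3 groups and carry no test.

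A wider list held 26 other chemokine ligands, of which 18 passed the filter. In Il-17rb-Cre 10 were lower and 2 higher against Il-17ra-Cre, with a median log2 fold change of -5.88 (-4.20 with genes without a count in a group set at their bound), and 7 were lower and 3 higher against Il-17rc-Cre, with a median of -4.10 (-2.88). Over all genes 24.4% were lower and 16.4% higher in the first comparison and 21.9% and 17.7% in the second, so the 3 higher ligands are near the background. Cxcl2, Cxcl3, Ccl1, Ccl11 and Ccl20 had no count in Il-17rb-Cre and passed the filter through the other groups alone. They could therefore not be higher in Il-17rb-Cre. Cxcl2, Ccl11 and Ccl20 are among the 10 lower ligands, and Cxcl2 and Ccl11 are among the 7. Ccl7, a monocyte attractant beside Ccl2, was at 62.7, 58.3 and 158 CPM in Il-17ra-Cre, at 0.357, 0.240 and 0.858 CPM in Il-17rb-Cre and at 23.6, 118, 77.4 and 228 CPM in Il-17rc-Cre. Its log2 fold changes were -7.57 ± 0.97 (adjusted p = 0.000255) and -7.84 ± 0.97 (adjusted p = 0.000183, both edgeR). The neutrophil attractant Cxcl2 had no count in Il-17rb-Cre and was at least 161-fold and 210-fold lower than in Il-17ra-Cre and Il-17rc-Cre, taking 3 counts over the group as the floor. The eosinophil attractant Ccl11 had no count there either and was at least 79.6-fold and 70.7-fold lower. Cxcl1, a second ligand of neutrophils, was lower by log2 values of -5.57 ± 0.92 (adjusted p = 0.00107) and -6.49 ± 0.94 (adjusted p = 0.000474, both edgeR). Ccl8 was lower as well, with means of 28.5, 0.207 and 5.31 CPM in Il-17ra-Cre, Il-17rb-Cre and Il-17rc-Cre. Cxcl11, another ligand of Cxcr3 that the annotation lists as a polymorphic pseudogene, was at -7.97 ± 1.20 (adjusted p = 0.000651) and -9.65 ± 1.24 (adjusted p = 0.000234, both edgeR), with 41.7% of its exonic bases shared with Gm2673.

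The ligands that were higher in Il-17rb-Cre were few. Ccl27a had means of 64.9 ± 38.3, 308 ± 48.6 and 56.3 ± 15.2 CPM (SD, n = 3, 3 and 4) in Il-17ra-Cre, Il-17rb-Cre and Il-17rc-Cre, and its log2 fold changes were 2.25 ± 0.44 (adjusted p = 0.00278) and 2.45 ± 0.40 (adjusted p = 0.000975, both edgeR). Near-identical copies of Ccl27a exist in the mouse genome, so its count is uncertain. Ccl17, a ligand of Ccr4, was higher by 1.68 ± 0.48 (adjusted p = 0.0188) and 1.72 ± 0.44 (adjusted p = 0.0114), and Ccl25, a thymic chemokine, by 0.76 ± 0.26 against Il-17rc-Cre (adjusted p = 0.0382, all edgeR). Between Il-17ra-Cre and Il-17rc-Cre 0 of the 18 passed, where 2.18% of all genes were called.

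Receptor transcripts were rare in the libraries of every group. Of 23 receptor genes 15 passed the filter, and in Il-17rb-Cre 7 were lower against Il-17ra-Cre (median log2 fold change -4.52) and 4 against Il-17rc-Cre (median -2.94), with none higher, where 24.4% and 21.9% of all genes were called lower. The count of 4 is near that background. Ccr2, Ccr8, Ccr9, Cxcr3 and Cxcr6 had no count in Il-17rb-Cre and passed the filter through the other groups alone. They could therefore not be higher in Il-17rb-Cre. Ccr2, Ccr8, Cxcr3 and Cxcr6 are among the 7 lower receptors, and Ccr2 and Ccr9 are among the 4. Cx3cr1, the microglial receptor of Cx3cl1, was at 10.8, 19.9 and 4.66 CPM in Il-17ra-Cre, at 0.488, 0.187 and 0.529 CPM in Il-17rb-Cre and at 0.741, 4.68, 0.894 and 0.807 CPM in Il-17rc-Cre. It was lower in Il-17rb-Cre against Il-17ra-Cre, at -4.87 ± 0.94 (adjusted p = 0.00254, edgeR), and against Il-17rc-Cre the value was -2.15 ± 0.82 (adjusted p = 0.0600, edgeR). The ligand and its receptor thus had their highest mean levels in different groups. Cxcr3, the receptor of Cxcl9 and Cxcl10, had no count in Il-17rb-Cre and means of 1.99 and 0.146 CPM in Il-17ra-Cre and Il-17rc-Cre, at least 131-fold lower (adjusted p = 0.0112, edgeR) and at least 9.65-fold lower (adjusted p = 0.0604, edgeR). Cxcr6, the receptor of Cxcl16, also had no count in Il-17rb-Cre, at least 301-fold lower than in Il-17ra-Cre (adjusted p = 0.0181, edgeR) and at least 36.0-fold lower than in Il-17rc-Cre (adjusted p = 0.0558, edgeR). Ccr2, the receptor of Ccl2, had no count there and was at least 61.3-fold (adjusted p = 0.0124, edgeR) and 38.1-fold lower (adjusted p = 0.0165, edgeR). In Il-17rc-Cre these receptors were also without a count in some libraries, in replicates 1 and 4 for Cxcr3, 1 and 3 for Cxcr6 and 3 for Ccr2, so there the groups touch and the bounds speak of group means. Ccr1, a receptor of Ccl3 and Ccl5 that did not pass the filter, had counts in replicates 1 and 2 of Il-17ra-Cre alone.

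The receptors of Cxcl12 were found at low levels. Cxcr4 had means of 0.795, 0.0688 and 0.651 CPM in Il-17ra-Cre, Il-17rb-Cre and Il-17rc-Cre and did not pass. Ackr3, the receptor that clears Cxcl12, was at 7.04, 6.0 and 5.52 CPM in Il-17ra-Cre, at 3.02, 3.16 and 1.94 CPM in Il-17rb-Cre and at 9.69, 16.7, 14.2 and 5.44 CPM in Il-17rc-Cre. It was lower in Il-17rb-Cre by log2 values of -1.19 ± 0.40 (adjusted p = 0.0350) and -2.08 ± 0.39 (adjusted p = 0.00209, both edgeR), so it was lower where its ligand did not pass. Ccrl2, an atypical receptor, was lower at -4.52 ± 0.73 (adjusted p = 0.000923) and -4.05 ± 0.70 (adjusted p = 0.00130, both edgeR). Ackr1 was the receptor with the highest mean in Il-17rb-Cre, 11.8 CPM, but 25.69% of its exonic bases are shared with Cadm3.

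**Figure D5:**
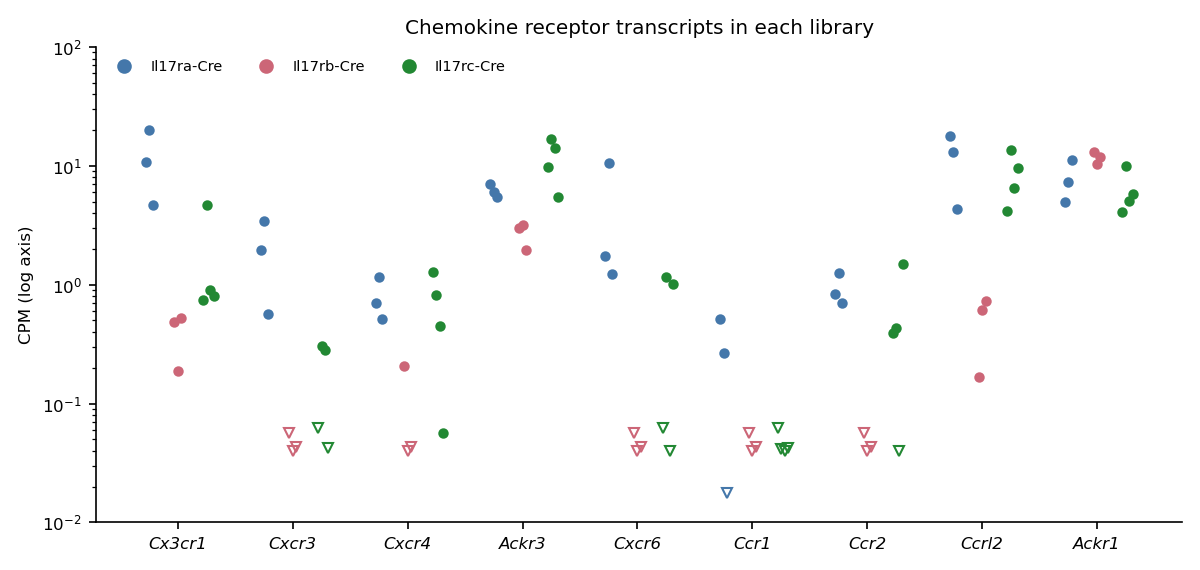
Transcripts of 9 chemokine receptors in each library, in CPM on a log axis, by group. Open triangles are counts of 0 drawn at the level of 3 counts; all 3 Il-17rb-Cre libraries are at 0 for Cxcr3, Cxcr6, Ccr1 and Ccr2, and the 2 highest Cx3cr1 values are Il-17ra-Cre libraries.

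Among 10 genes of proteases that release or trim chemokines, 9 passed the filter, and in Il-17rb-Cre 7 were lower against Il-17ra-Cre (median log2 fold change -3.34) and 5 against Il-17rc-Cre (median -3.06, or -2.44 with genes without a count at their bound), beside 24.4% and 21.9% of all genes called lower. Mmp12 and Anpep had no count in Il-17rb-Cre and passed the filter through the other groups alone, so they could not be higher there. Adam17, a sheddase that cuts Cx3cl1 after stimulation, had means of 22.9, 2.25 and 12.3 CPM in Il-17ra-Cre, Il-17rb-Cre and Il-17rc-Cre, with log2 fold changes of -3.34 ± 0.56 (adjusted p = 0.00121) and -2.44 ± 0.53 (adjusted p = 0.00465, both edgeR). Adam10, the sheddase of Cx3cl1 and Cxcl16 at rest, was lower against Il-17ra-Cre at -1.20 ± 0.32 (adjusted p = 0.0128, edgeR), and was -0.52 ± 0.30 against Il-17rc-Cre (adjusted p = 0.189, edgeR). Adam17 was thus lowest in the group where Cx3cl1 was highest. Mmp14, a membrane metalloprotease, was lower at -5.19 ± 0.37 (adjusted p = 1.00e-05) and -5.86 ± 0.37 (adjusted p = 3.71e-06, both edgeR). Ctss, a microglial cathepsin that also cuts Cx3cl1, was at 332, 515 and 174 CPM in Il-17ra-Cre, at 2.37, 2.19 and 3.55 CPM in Il-17rb-Cre and at 5.91, 56.9, 3.82 and 23.6 CPM in Il-17rc-Cre. It was the single gene of these chemokine lists that passed between Il-17ra-Cre and Il-17rc-Cre, at 3.91 ± 0.83 (adjusted p = 0.0454, edgeR), where 7 of 14 microglial markers were higher in Il-17ra-Cre too, beside 1.38% of all genes. Without Il-17ra-Cre replicate 1 or replicate 2, 0 of all genes passed in that comparison.

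Regulators upstream of chemokines, that is the interferon, tumour necrosis factor and interleukin receptors, their STAT, IRF and NF-kappaB factors and C/EBP and AP-1 factors, numbered 32 and all passed the filter. In Il-17rb-Cre 28 were lower against Il-17ra-Cre (median log2 fold change -2.44) and 27 against Il-17rc-Cre (median -2.12), with none higher. Over all genes 24.4% and 21.9% were called lower in these comparisons. Between the other groups 0 regulators passed, where 2.18% of all genes were called. Irf1, which switches on Cxcl9 and Cxcl10 downstream of interferon, was at 1270, 1121 and 630.5 CPM in Il-17ra-Cre, at 13.8, 9.93 and 15.4 CPM in Il-17rb-Cre and at 132, 768, 277 and 719 CPM in Il-17rc-Cre. Its log2 fold changes were -6.27 ± 0.71 (adjusted p = 0.000123) and -5.18 ± 0.66 (adjusted p = 0.000224, both edgeR). Cebpd, a C/EBP factor of the acute response, had means of 514, 12.7 and 478 CPM, and Tnfrsf1a, a receptor of tumour necrosis factor, had means of 105, 2.28 and 167 CPM in Il-17ra-Cre, Il-17rb-Cre and Il-17rc-Cre. Nfkbia, the feedback inhibitor of NF-kappaB, had means of 538, 45.7 and 425 CPM, and Stat3 had means of 442, 43.7 and 337 CPM. The lower values thus covered interferon, tumour necrosis factor and NF-kappaB genes alike. Irf3 and Irf7, the factors of type I interferon induction, were lower by less than Irf1 and by amounts near the medians of the list. Their values were -2.38 ± 0.19 and -2.20 ± 0.18 for Irf3 and -2.79 ± 0.26 and -2.11 ± 0.24 for Irf7. Those that did not pass were Fos, Ifngr2, Il17ra and Il17rb in both comparisons and Rel against Il-17rc-Cre.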

How the data were processed

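TRAP RNA from 10 libraries was analysed as deposited raw counts per gene. Per the labels' protocols, libraries were made with a SMART-Seq v4 kit, and per the submitters' processing notes reads were aligned with STAR 2.7.5c to GRCm38. For read assignment, strand setting, annotation and trimming the method is not given in the sources used here. PCR reads without molecular identifiers are not independent molecules, so a floor of 3 counts covers counting error only.

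Symbols, coordinates and exon lengths came from GENCODE, on GRCm38, and promoters from RefSeq, on GRCm38.p6. Genes passing edgeR's filter by group were kept with the interleukin-17 receptor genes (20301 kept, 35235 removed), normalised by TMM, then tested in edgeR 4.0.16 under R 4.3.3 with all 10 libraries in 1 quasi-likelihood model and Benjamini-Hochberg adjustment over all tested genes within each comparison. The common dispersion was 0.239. CPM and RPKM were computed from the counts. The script was tested on simulated data.

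The chemokines and gene lists were chosen with earlier results of these data known. Beyond the chemokines, the text names list members with the smallest p or the highest mean, the known receptors, and the 3 genes most alike each chemokine. Ccl19 and Ccl21a were left out because their symbols stand on 2 identifiers. One further receptor is not reported here. Alternatives were DESeq2 1.42.0, limma 3.58.1 voom, other scalings and filters, 2-group fits, a replicate block and leaving out libraries.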

Additional observations from a re-analysis of the deposited data

How the results depend on the processing

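In both comparisons of Il-17rb-Cre, 9 chemokines were called under every alternative, except 8 against Il-17ra-Cre when Il-17ra-Cre replicates 1 and 2 were left out together, a choice made after seeing the data that leaves 1 library, assumed to vary like the other groups; the genes called then numbered 4192 against 8268. In Il-17ra-Cre against Il-17rc-Cre the genes called numbered 443, and 2087 by DESeq2, 4579 by limma voom, 691 with at least 1 CPM in 3 libraries, 1 with only these groups fitted, 0 to 2886 when leaving out 1 library (0 without Il-17ra-Cre replicate 1 or 2 or Il-17rc-Cre replicate 3, 2886 without Il-17ra-Cre replicate 3), and 0 without Il-17ra-Cre replicates 1 and 2 or Il-17rc-Cre replicates 1 and 3. Chemokines called there numbered 2 by DESeq2, 6 by limma voom and 0 to 1 when leaving out 1 library. A replicate block, by numbers that do not pair the samples (correlations of deviations from -0.08 to 0.18), gave 7627, 6372 and 2 genes in the order Il-17rb-Cre against Il-17ra-Cre, Il-17rb-Cre against Il-17rc-Cre and Il-17ra-Cre against Il-17rc-Cre, and 1 gene in the last when blocked by library number, with 9, 9 and 0 chemokines. The cause of these changes was not tested.

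The signs that changed belong to differences that did not pass in the edgeR fit of all libraries, although limma voom called Ccl4 and Ccl5 higher in Il-17ra-Cre against Il-17rc-Cre. When leaving out 1 library, Cxcl12 ran from -0.07 to 0.20 in Il-17rb-Cre against Il-17ra-Cre, from -0.24 to 0.12 in Il-17rb-Cre against Il-17rc-Cre and from -0.27 to 0.05 in Il-17ra-Cre against Il-17rc-Cre, where Ccl5 ran from -0.05 to 0.66. Cxcl12 in Il-17rb-Cre against Il-17ra-Cre was 0 without Il-17ra-Cre replicate 2, -0.07 without Il-17rb-Cre replicate 3 and -0.01 without Il-17ra-Cre replicates 1 and 2. Against Il-17rc-Cre it was 0.07 with upper quartile scaling, 0.08 by limma voom, and 0.04, 0.08 and 0.12 without Il-17rb-Cre replicate 1, Il-17rc-Cre replicate 1 and Il-17rc-Cre replicate 2. In Il-17ra-Cre against Il-17rc-Cre, Cxcl9 was 0.01 by limma voom, Ccl5 was -0.05 without Il-17ra-Cre replicate 2, -0.78 without Il-17ra-Cre replicates 1 and 2 and -0.05 without Il-17rc-Cre replicates 1 and 3, and Cxcl12 was 0.01 and 0.05 without Il-17rc-Cre replicates 1 and 2 in turn. Without Il-17ra-Cre replicates 1 and 2, Cx3cl1 was 0.13 and Ccl4 -0.15. Upper quartile scaling moved the median of all genes from -0.09 to 0.04 and from 0.02 to 0.13 in the comparisons of Il-17rb-Cre, and DESeq2's size factors moved the share of higher calls in Il-17ra-Cre against Il-17rc-Cre from 63.4% to 48.9%. Depth limits Cxcl9, Ccl3 and Ccl4 in Il-17rb-Cre, where a library held at most 28 counts of each.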
